A study of Mus musculus with 2 samples.

Results

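The planar cell polarity core and the Ror receptors were read in limb buds of E10.5 mouse embryos with and without Bhlha9. The set comprised 10 genes, Ror1, Ror2, Vangl1, Vangl2, Prickle1, Prickle2, Dvl1, Dvl2, Dvl3 and Scrib, and its members were all probe sets annotated with 1 of these symbols alone. They came to 20 of 45037 probe sets, and 10 of 18193 named genes. RNA was taken from whole limb buds of the C57BL/6 line, wild-type or Bhlha9 knockout, and each genotype was measured on 1 Affymetrix Mouse Genome 430 2.0 array. The product of Bhlha9 is a transcription factor of the basic helix-loop-helix class, and the comparison asks which limb bud transcripts differ without it. The sources used here do not give the kind of knockout allele, its zygosity, the number of embryos behind each RNA or the mix of fore and hind limb buds.

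Planar cell polarity is the alignment of cells within the plane of a tissue. In vertebrates, Wnt5a and related ligands act on Frizzled receptors and on Ror receptors, which are receptor tyrosine kinase-like proteins. The signal is passed through Dishevelled proteins and opposed at the cell membrane by Vangl and Prickle proteins, so that each cell gains a polarised cortex. In the limb bud this pathway is known for directing elongation along the proximodistal axis, and mutations in human WNT5A, ROR2 and DVL1 cause Robinow syndrome, which shortens the limbs.

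The values are MAS 5.0 signals, a linear brightness per probe set. The array's own scaling set the 2% trimmed mean of both arrays to 500.0. Signals at or under a floor, the 40th percentile of the array (41.2 for wild-type and 41.8 for knockout), were treated as not detected. With 1 array per genotype there is no test of the genotype and no biological error, so "lower" and "higher" describe these arrays. The measurement error within these arrays was estimated from the 3166 genes that had a pair of probe sets in the members' range of signal. From the disagreement within pairs, the SD was 0.29 for a single log2 ratio (knockout minus wild-type) and 0.42 for the difference between 2 ratios. Both were scaled from the median absolute deviation, which gives little weight to the widest gaps. A gap of 2.72 of these SD, that of Vangl1, was reached by 2.75% of the genes. The probe set of Bhlha9 itself read 7.87 and 1.70, under the floor on both arrays, so it did not check the labels.

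Most members had less signal on the knockout array. Of 20 probe sets, 14 were above the floor on both arrays, 1 on the knockout array alone and 5 on neither. Of the 14, 12 had a negative log2 ratio, and the median was -0.39. Among all probe sets above the floor on both arrays, 54.7% had a negative ratio and the median was -0.06. Among the 15555 probe sets in the members' range of signal (geometric mean 117 to 1744), 59.2% were negative and the median was -0.12. The probe sets of that range thus leaned to lower signals too, and the members' median lay further below zero. At a threshold of 2-fold, 2 of the 15 probe sets with a ratio were lower, 1 of Ror2 and 1 of Vangl1, and 0 were higher. Over all probe sets with a ratio, 4.52% passed 2-fold downwards and 3.23% upwards, and in the members' range of signal 4.35% and 2.13% did. With 15 ratios, 1 call more or less moves the members' share by more than these percentages. At 1.5-fold, 4 of the 15 were lower, which adds a probe set each of Dvl2 and Prickle1, and 0 were higher. The background at 1.5-fold was 15.6% lower and 10.3% higher over all probe sets, and 17.0% and 7.99% in the members' range of signal.

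**Figure D1:**
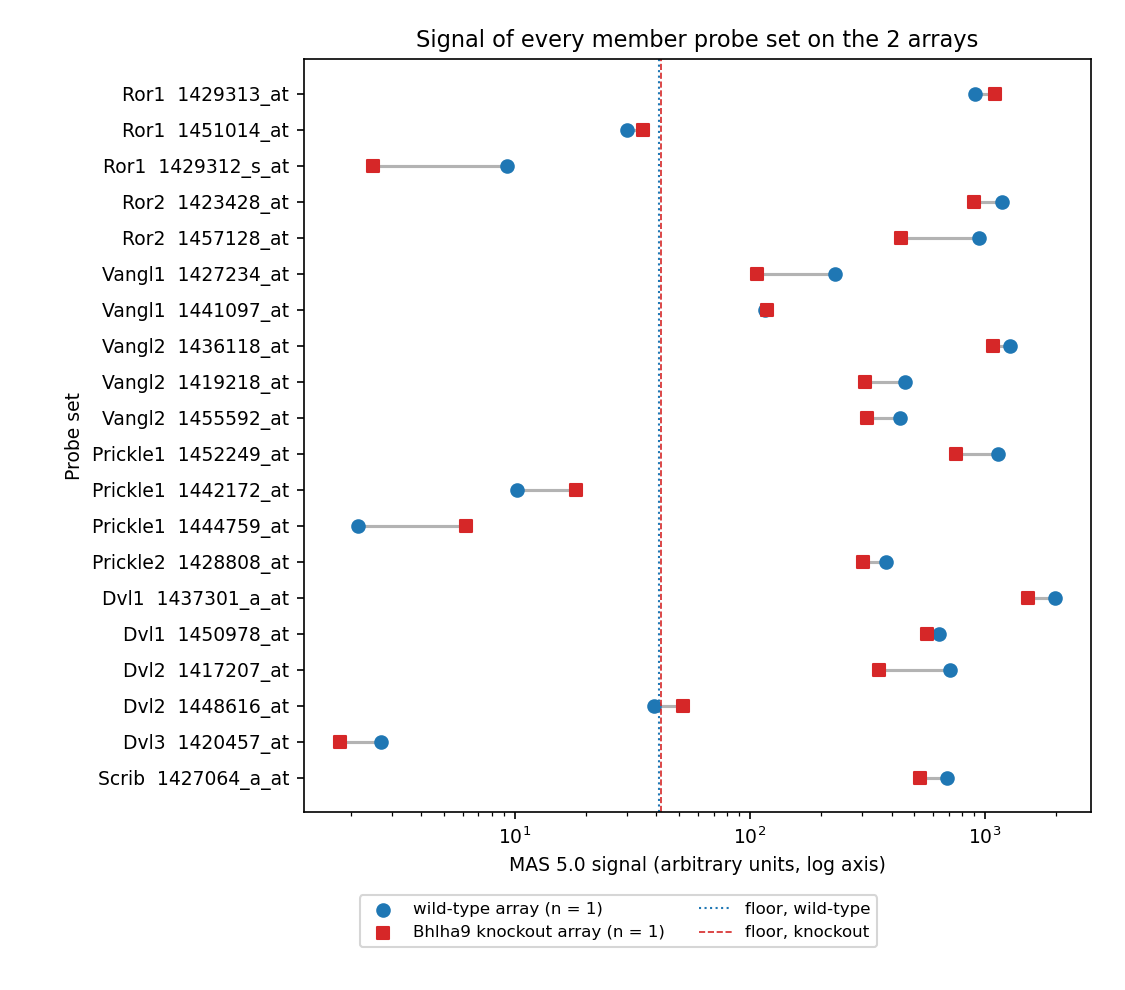
MAS 5.0 signal (arbitrary units, log axis) of the 20 member probe sets on the wild-type array (circles) and the knockout array (squares), 1 array each, with the floors of 41.2 and 41.8 as vertical lines. Of the 14 pairs above both floors, 12 have the knockout square to the left of the wild-type circle, and both symbols of the Dvl3 probe set lie far under the floor.

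The RefSeq sequence upstream of the start was available for 8 of the 10 genes in 12 windows, each trimmed to the 250 bases before the start. The factors of the Bhlha9 class are known to bind E-boxes, which read CANNTG on either strand. The windows of both Ror receptors are shown because their brightest probe sets lay on either side of zero, that of Vangl2 because its 3 probe sets were lower together, and that of Dvl2 because it held the most E-boxes of the 12. This choice was made after the values and windows had been seen. The build is GRCm38.p6, and each run is written 5′ to 3′ on the gene's strand with every CANNTG in capitals.
Ror2, chr13:53286125-53286374, minus strand: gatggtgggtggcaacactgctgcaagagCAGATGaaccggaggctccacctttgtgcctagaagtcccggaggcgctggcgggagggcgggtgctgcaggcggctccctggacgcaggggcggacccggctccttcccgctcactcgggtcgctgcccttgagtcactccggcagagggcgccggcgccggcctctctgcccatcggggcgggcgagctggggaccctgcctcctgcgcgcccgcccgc
Dvl2, chr11:70000342-70000591, plus strand: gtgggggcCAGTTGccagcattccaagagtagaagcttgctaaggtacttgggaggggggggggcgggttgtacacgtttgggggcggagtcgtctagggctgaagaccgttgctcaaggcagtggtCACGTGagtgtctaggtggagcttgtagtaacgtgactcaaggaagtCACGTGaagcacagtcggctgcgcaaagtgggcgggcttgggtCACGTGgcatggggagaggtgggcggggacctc
Vangl2, chr1:172027296-172027545, minus strand: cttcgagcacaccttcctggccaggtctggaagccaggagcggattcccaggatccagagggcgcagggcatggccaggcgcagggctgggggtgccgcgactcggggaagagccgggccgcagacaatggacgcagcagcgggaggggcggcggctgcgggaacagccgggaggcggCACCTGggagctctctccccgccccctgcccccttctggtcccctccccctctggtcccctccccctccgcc
Ror1, chr4:100095541-100095790, plus strand: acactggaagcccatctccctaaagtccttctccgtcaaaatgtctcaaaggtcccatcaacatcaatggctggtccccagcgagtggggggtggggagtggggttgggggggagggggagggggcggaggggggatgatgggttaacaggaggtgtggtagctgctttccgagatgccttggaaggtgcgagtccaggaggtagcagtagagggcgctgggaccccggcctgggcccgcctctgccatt
The window of Dvl2 held 4 E-boxes, of which 3 read CACGTG and began 123, 76 and 33 bases before the start. The window of Ror2 held 1, CAGATG, and that of Vangl2 held 1, CACCTG. The window of Ror1 held 0, as did 1 of the 2 windows of Prickle1. Several of the 12 windows belong to Prickle2 and 2 to Prickle1. A CANNTG was present in 10 of the 12 and in 66.2% of 32851 RefSeq windows of the same length. The median was 1 per window in both sets. The median share of G and C bases was 66.2% in the member windows and 52.4% in all windows. A CACGTG, searched for after the Dvl2 window had been read, was present in 6.02% of all windows, and 3 or more copies in 20 of them, or 0.0609%. These matches describe the letters of the windows, and no binding was measured.

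The Ror receptors bind Wnt5a and signal without β-catenin. Ror2, the receptor most closely tied to limb growth, had a pair of probe sets above the floor, and both were lower on the knockout array. The brighter of them, 1423428_at, read 1180 in wild-type and 898 in knockout tissue, a log2 ratio of -0.39. The other, 1457128_at, read 937 and 438, a ratio of -1.10 or 2.14-fold lower. Both readings of Ror2 point downwards, but they differ by 0.70. In the same range of signal, 12.9% of genes had a pair of probe sets that differed by as much, so the size of the difference in Ror2 was not settled. With 1 array per genotype its sign could not be tested either. Ratios as low as that of 1457128_at were held by 3.26% of the 15555 probe sets of like signal, and as low as that of 1423428_at by 29.0%. The ratio of 1423428_at stood at -1.34 SD of the error.

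Ror1, the paralogue of Ror2, had the highest ratio among members measured on both arrays. Its probe set 1429313_at read 901 in wild-type and 1105 in knockout tissue, a ratio of 0.29, which equals 1 SD of the measurement error. The other 2 probe sets of Ror1 lay below both floors, with 30.1 and 34.9 for 1451014_at and 9.27 and 2.49 for 1429312_s_at. Ror1 was thus read by 1 probe set, and its difference from 0 was no larger than the error. The ratio of Ror1 exceeded that of the brighter Ror2 probe set by 0.69, or 1.65 SD of a difference between 2 ratios.

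The Vangl proteins are membrane proteins that mark a side of the polarised cell together with Prickle. Vangl2 was the member with the most probe sets above the floor, and its 3 readings lay close together below zero. The signals were 1279 and 1084 for 1436118_at, 456 and 308 for 1419218_at, and 433 and 314 for 1455592_at, wild-type first. The ratios were -0.24, -0.56 and -0.46, a spread of 0.33 from the lowest to the highest. Each reading of Vangl2 was lower by less than 2 SD of the measurement error, with the same sign in all 3.

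Vangl1, which overlaps with Vangl2 in function, was lower by 1 of its pair of probe sets and differed by less than the error in the other. The probe set 1427234_at read 230 in wild-type and 107 in knockout tissue, a ratio of -1.10 or 2.15-fold lower. The probe set 1441097_at read 115 and 118, a ratio of 0.03. Among members with several probe sets above both floors this gap of 1.13 was the widest, and 2.75% of genes in this range of signal had a gap as wide. The arrays do not settle whether the Vangl1 transcript differed, and which parts of the transcript each probe set covers was not analysed here.

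Prickle proteins are the cytoplasmic partners of Vangl at the membrane. Prickle1 read 1138 in wild-type and 748 in knockout tissue by 1452249_at, a ratio of -0.60 or 1.52-fold lower, about 2 SD of the error. Its other probe sets, 1442172_at at 10.3 and 18.3 and 1444759_at at 2.15 and 6.21, were under the floor on both arrays and give no ratio. Prickle2 was read by 1 probe set, 1428808_at, at 377 and 303, a ratio of -0.32. The ratios of the 2 Prickle genes differed by -0.29, less than the error SD of such a difference, so they were not told apart.

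Dishevelled proteins carry the signal from Frizzled and Ror into the cell. Dvl2 gave the lowest ratio of the family, with 705 in wild-type and 353 in knockout tissue by 1417207_at, a ratio of -0.999 that fell just short of the 2-fold line. Its dimmer probe set 1448616_at was under the wild-type floor at 39.1 and read 51.9 in knockout tissue, which makes it at least 1.26-fold higher. The brighter reading of Dvl2 stood at -3.39 SD of the error, and the dim one, near the floor, pointed the other way. As that reading is a bound, the gap between them was not measured at this floor. At a floor of the 20th percentile both were measured, at -0.999 and 0.41, further apart than the pair of Vangl1. The probe sets of Dvl2 thus did not agree. Dvl1 read 1991 and 1529 by 1437301_a_at and 637 and 563 by 1450978_at, ratios of -0.38 and -0.18. Both readings of Dvl1 were lower, by little more than the measurement error or less. Dvl3 has a single probe set, 1420457_at, which read 2.69 and 1.80, so no difference could be read for it. That reading gives a bound on the signal and does not show that the transcript was missing.

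Scrib, a scaffold of the basolateral membrane that binds Vangl2, read 691 in wild-type and 528 in knockout tissue by 1427064_a_at, a ratio of -0.39. That is -1.31 SD of the error, and 29.5% of probe sets of like signal had a ratio as low. Taking the brightest probe set of each gene, 8 of the 9 member genes above the floor were lower and 1, Ror1, was higher. Among all genes read this way, 50.9% were lower, and 2.66% were at least 2-fold lower against 1 of the 9 members, Vangl1.

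**Figure D2:**
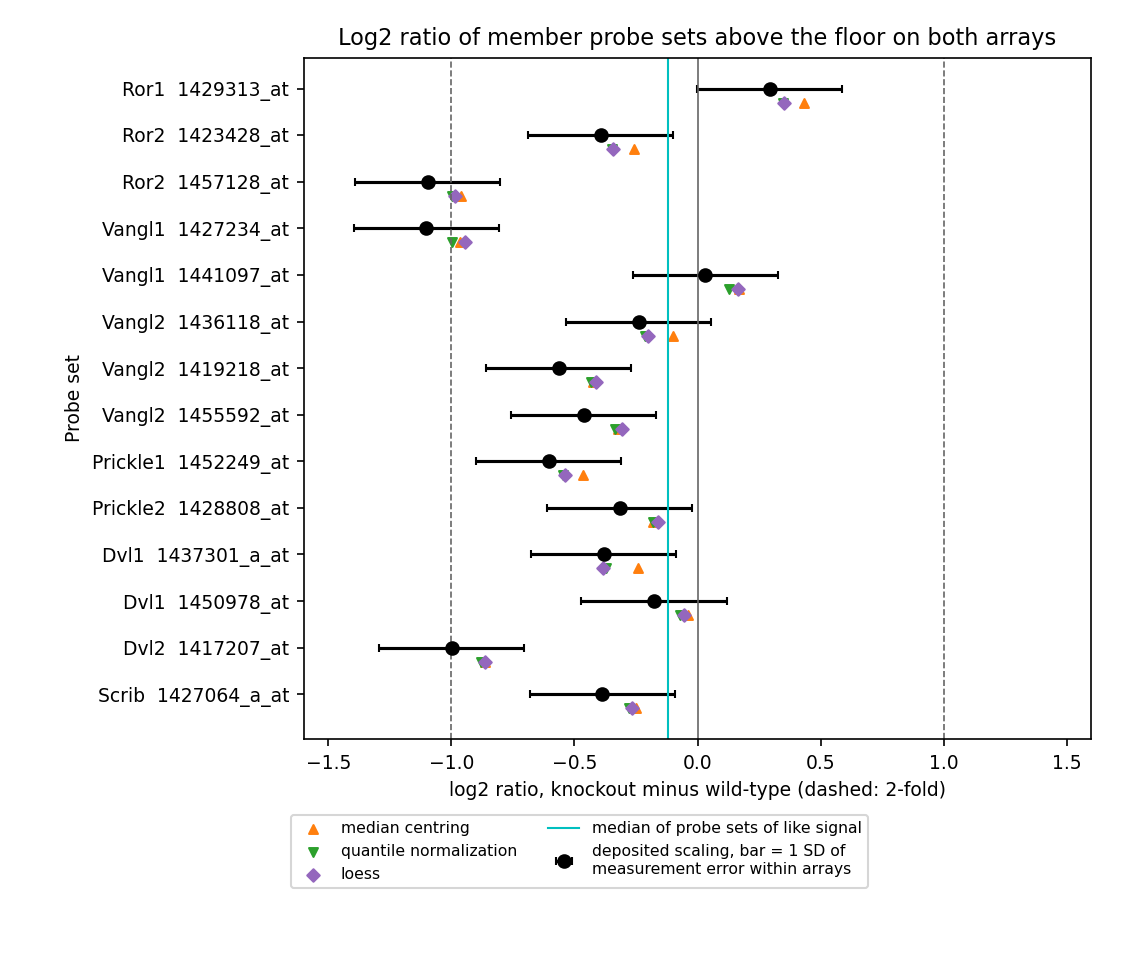
Log2 ratio (knockout minus wild-type) of the 14 member probe sets above the floor on both arrays, with bars of 1 SD of the measurement error within arrays (0.29) and the same ratios after 3 other scalings. The probe sets 1457128_at of Ror2 and 1427234_at of Vangl1 lie at -1.10 on the deposited scale and just inside the dashed 2-fold line after the other scalings, while 1429313_at of Ror1 lies above 0 throughout.

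The 2-fold calls rested on the deposited scaling. Median centring matched the median signals of the 2 arrays above the floors. It moved the median log2 ratio of all probe sets by 0.14, from -0.06 to 0.08, past zero. The probe set 1457128_at of Ror2 then stood at -0.96 and 1427234_at of Vangl1 at -0.97, and 0 member probe sets were 2-fold lower. The count was also 0 after quantile normalization and after loess. The signs held in each of these scalings, with 12 of 14 ratios negative. That share depended on the floor, as 12 of 17 were negative at the 20th percentile and 11 of 12 at the 60th. With no floor and a pseudocount of 32 added to each signal, 14 of 20 were negative.

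Other genes of the pathway were divided between lower and higher readings. Of a list of 48 further planar polarity genes, 44 had a probe set of their symbol alone, 42 of them above the floor on both arrays and 1, Wnt9b, on the knockout array alone. Of the 42, 22 had negative and 20 positive ratios by the brightest probe set, with a median of -0.04, beside -0.01 over all genes. After median centring 18 were negative and 24 positive, the genes that changed sign being Dlg1, Llgl2, Rhoa and Fzd7. After loess only Llgl2 changed sign, and after quantile normalization 0 genes did. Counting Wnt9b, 2 of the 43 passed 2-fold upwards and 0 downwards by the brightest probe set, where 4.16% and 2.66% of all genes did. With every probe set read, as for the members, 5 of 100 passed 2-fold upwards and 6 downwards, beside 3.23% and 4.52% of all probe sets. The 6 lower ones were 2 of Wnt5a, 2 of Cplane1 and 1 each of Csnk1d and Mapk8, and the 5 higher ones belonged to Fzd6, Dact1, Wnt4, Cdc42 and Daam1. On this reading 51 of 93 ratios measured on both arrays were negative, with a median of -0.07. By the brightest probe set, 3 genes were higher and 4 lower at 1.5-fold, beside 11.3% and 11.7% of all genes. These shares lie near the background.

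Among the ligands, Wnt5a, which is expressed in the distal limb bud and signals through Ror2, read 2148 in wild-type and 1491 in knockout tissue, a ratio of -0.53. Its 4 probe sets above the floor were all lower, with ratios from -1.43 to -0.47. Wnt11, a further non-canonical ligand, stood at -0.53, from 237 to 164. Wnt5b read 317 and 278, a ratio of -0.19, with -0.78 by its dimmer probe set. Wnt4, a ligand best known from kidney and gonad development, was higher, at 253 and 409, a ratio of 0.69, and its dimmer probe set gave 1.35. Wnt5a, Wnt5b and Wnt11 thus lay on the other side of zero from Wnt4, under the other scalings as well. After those scalings the brightest probe set of Wnt5b stood only between -0.05 and -0.03, well within the measurement error.

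The receptors were split in the same manner. Fzd6, a Frizzled of polarised epithelia, read 352 and 723, a ratio of 1.04 or 2.05-fold higher, with 0.75 by its dimmer probe set. Fzd3, which acts in axon guidance, read 2245 and 3144, a ratio of 0.49, and its 4 probe sets above the floor were all positive. Fzd2 read 3070 and 2210, a ratio of -0.47, and its 3 probe sets above the floor were all negative. Ptk7, a pseudokinase co-receptor of planar polarity, read 837 and 492, a ratio of -0.77 by 1 probe set. Ryk, a Wnt receptor of axons, stood at 0.12. Of the 7 receptors and co-receptors, 4 were positive and 3 negative, and Fzd7 at -0.02 turned positive after median centring.

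The seven-pass cadherins, which bridge the membranes of neighbouring cells in the core complex, were dim. Celsr1 read 116 and 156, a ratio of 0.43, Celsr2 read 141 and 210, a ratio of 0.58, and Celsr3 lay below both floors at 5.89 and 3.90. Both Celsr genes that could be read were thus higher on the knockout array, opposite to Vangl2 and Prickle1 of the same complex. Each was measured on both arrays by 1 probe set, and the error SD of a single ratio was 0.29. Dact1, a Dishevelled-binding protein, had the highest ratio of the list by the brightest probe set. Its only probe set read 801 and 1813, a ratio of 1.18 or 2.26-fold higher. The 4 genes of the Scribble complex beside Scrib, namely Dlg1, Llgl1, Llgl2 and Arhgef7, had ratios from -0.32 to -0.07 by the brightest probe set, near the error, and Dlg1 and Llgl2 turned positive after median centring. The dimmer probe set of Arhgef7 read 50.0 and 74.4, a ratio of 0.57 of opposite sign, and those of Dlg1 gave -0.02 and -0.46. By the brightest probe set, the 9 effectors read, such as Rhoa at -0.06 and Rac1 at -0.15, ranged from -0.45 to 0.53. Of these 4 were negative and 5 positive, and Rhoa turned positive after median centring. Dimmer probe sets above both floors gave -0.38 for Rhoa and -0.46 for Rac1, and another of Rhoa, under the knockout floor, gave a bound of -0.89.

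**Figure D3:**
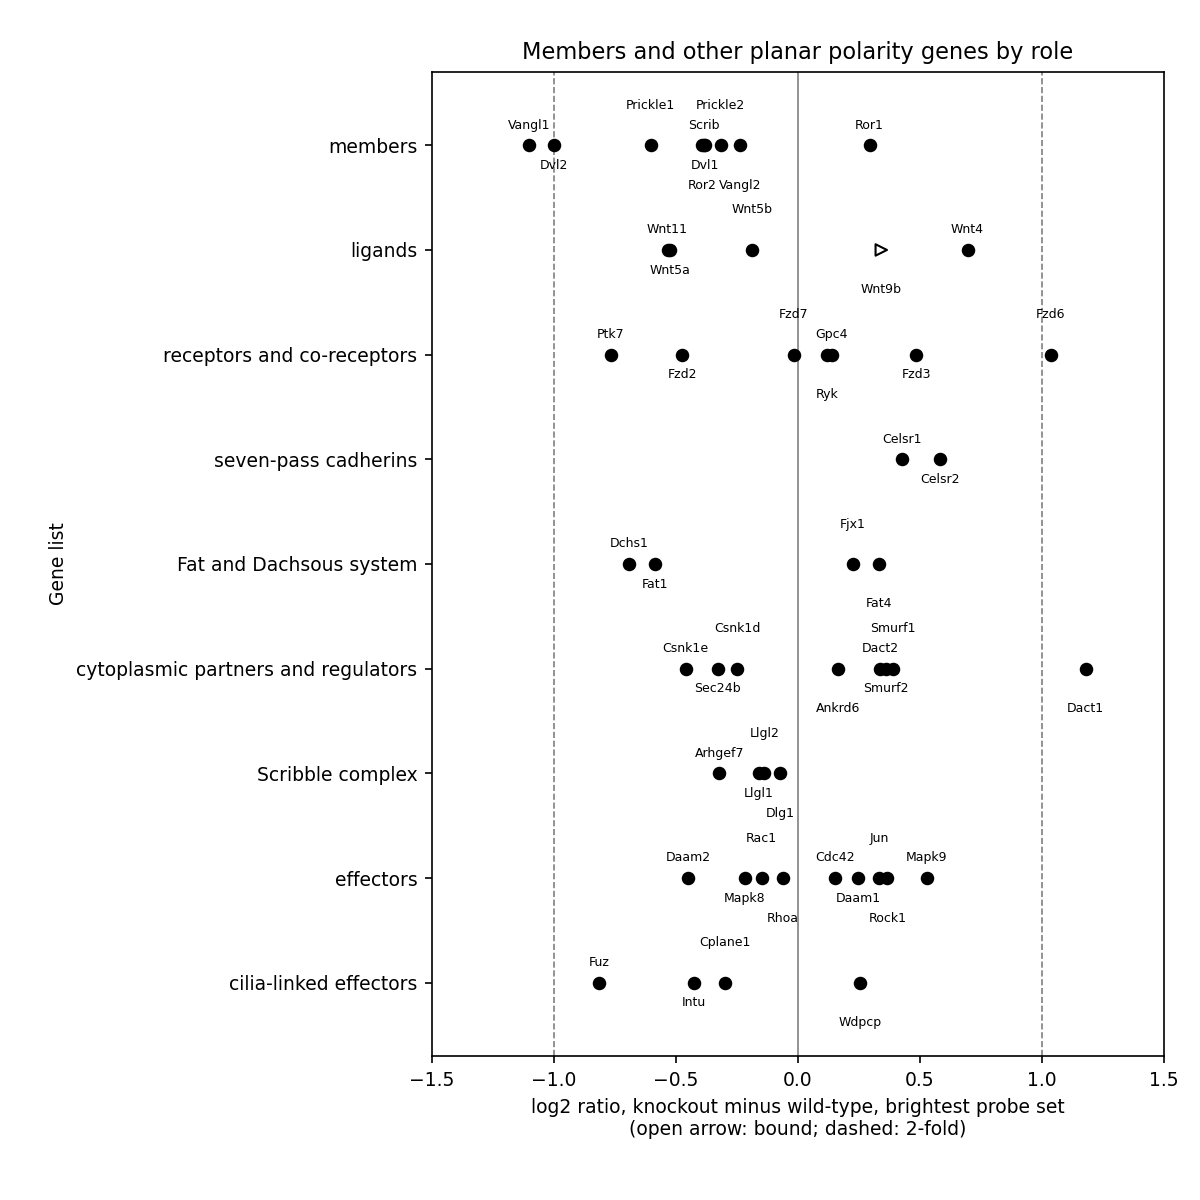
Log2 ratio (knockout minus wild-type) of the brightest probe set of the 9 member genes and of 43 other planar polarity genes, 1 row per role, with dashed lines at 2-fold and an open arrow for a bound. Members lie mostly left of 0, the Celsr genes lie right of 0, and Fzd6 and Dact1 are the genes beyond the right-hand dashed line.

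Markers of cell types in and near the limb bud were read beside the members. The 9 limb mesenchyme markers, above the floor on both arrays, were all lower on the knockout array, with a median of -1.23, and their summed signal went from 33530 to 18165. The lowest were Lmx1b at -1.92, Msx1 at -1.37 and Lhx9 at -1.34, whereas Prrx1, which marks early limb mesenchyme broadly, stood at -0.33. Of the 6 endothelial markers 5 had less signal, with a summed signal of 4530 and 3631. The ratio of Kdr was -1.09 and that of Emcn, which was higher, 0.44. The 5 red cell markers on the array ranged from -0.04 to 0.34, and their summed signal was 85089 and 90343.

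Most markers of other tissues were higher on the knockout array. The 11 neural tube and neuron markers summed to 746 and 5007, and 11 were at least 2-fold higher. Of these Pax6, Neurod1, Neurog2 and Elavl3 were below the wild-type floor. The highest measured on both arrays were Fabp7 at 4.08, Nefl at 2.98 and Sox2 at 2.71. The 8 embryonic liver markers summed to 154 and 31196, and 7, all but Apoa2, were below the wild-type floor. Apoa2, measured on both, was 24.0-fold higher. The 7 skeletal muscle markers summed to 1909 and 3589, and Actc1 was lower, from 1481 to 1067, a ratio of -0.47. Of the 7, 6 were at least 2-fold higher, led by Myl4 at 3.47, Mylpf at 3.17 and Tnnt2 at 2.23. Of 6 somite and mesothelium markers 4 were, led by Wt1 at 2.01, Tcf21 at 1.73 and Foxc2 at 1.44, with sums of 1263 and 2950. Of 9 markers of surface ectoderm and epithelium 5 were, led by Cdh1 at 1.72, Trp63 at 1.46 and Esrp1 at 1.45. The 9 summed to 6053 and 10113, while Krt8 was lower at -0.11 and Fgf8 stood at 0.15. The part of these tissues in the readings of Ror2, Vangl2, Prickle1, Dvl2, the Celsr genes, Fzd6 and Dact1 was not tested, and in a bulk sample fewer cells of a type and less RNA per cell cannot be told apart.

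**Figure D4:**
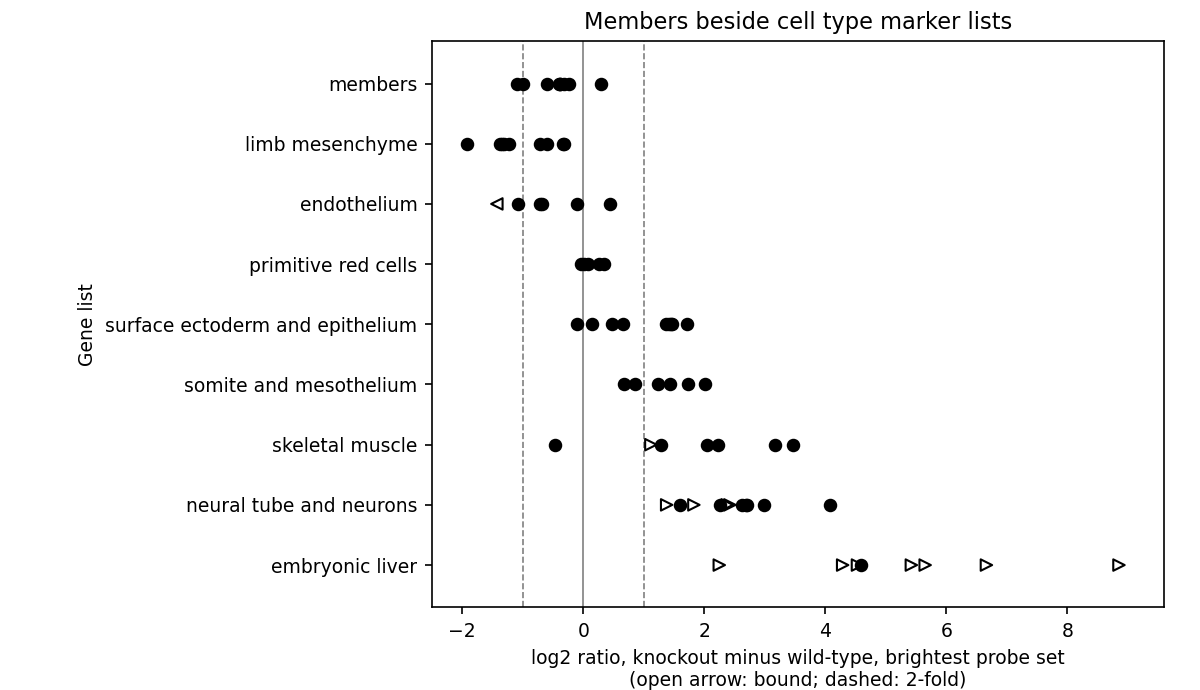
Log2 ratio (knockout minus wild-type) of the brightest probe set of each gene, for the 9 member genes and 8 cell type marker lists, 1 row per list, with open arrows for bounds. The members lie between -1.10 and 0.29, overlapping the limb mesenchyme markers at -1.92 to -0.33 and the endothelial markers, while the 11 neural and 8 liver markers lie to the right of the 2-fold line.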

How the data were processed

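RNA from whole limb buds, 200 ng per sample, was labelled with a 3′ IVT kit and hybridised to 1 array per genotype, per the labels' protocols. The deposited values are intensities on a linear scale, summarised by the authors with MAS 5.0, per the series' design text. MAS 5.0 scales each array on its own, so a change in tissue composition shifts other genes, and low signals are noisy. Of 45101 probe sets, 64 controls were left out. Symbols came from the platform annotation, where 34945 probe sets had 1 symbol, 932 several and 9160 were unnamed here; Entrez identifiers of 34741 matched RefSeq genes of GRCm38.p6. Signals at or under the floor were raised to it before log2 ratios were taken, a ratio with 1 array at the floor is a bound, and no test was run. For list genes the probe set with the highest mean signal was read, for members each one. Named genes were the members, 12 other pathway genes, list genes past 2-fold, and up to 3 markers per list with the largest ratios. Wnt9b, Fzd2, Fzd7, Cplane1, Csnk1d, Mapk8, Cdc42, Daam1, the Scribble complex, Rhoa, Rac1 and Prrx1 were added after their values were seen. So were Actc1, Krt8, Fgf8 and Emcn. The members and lists were chosen with earlier results of these data known, and the background of like signal was chosen after the values were seen. Ratios and calls were tested on simulated data. Alternatives were other scalings, floors, thresholds and probe set choices. The number of arrays limits the precision. Python 3.11.15, numpy 2.4.6, pandas 2.3.3, matplotlib 3.10.9, R 4.3.3 and limma 3.58.1 were used.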

Additional observations from a re-analysis of the deposited data

How the results depend on the processing

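The members' median kept its sign under every alternative run, from -0.43 without probe sets of the _s_at, _x_at and _a_at kinds to -0.25 after median centring. Of 88 values of single member probe sets under other scalings, other floors and a pseudocount, 0 changed sign. Only the scalings were a check of sign. A floor leaves the ratios above it as they are, and a pseudocount added to both arrays keeps the sign. The largest shift was that of 1427234_at of Vangl1, from -1.10 to -0.58 at a floor of the 60th percentile, where its knockout signal is under the floor.

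The count of member probe sets at least 2-fold lower, 2 as reported, was 0 after median centring, 0 after quantile normalization and 0 after loess. It was 1 at a floor of the 60th percentile, 1 with a pseudocount of 32 and no floor, 1 with 1 probe set per gene, and 4 at 1.5-fold. The count at least 2-fold higher was 0 at each setting. Of the other planar polarity genes, 0 passed 2-fold downwards by the brightest probe set and 4 passed 1.5-fold. With every probe set read, an alternative chosen after seeing the data, 6 passed 2-fold downwards and 5 upwards, where 2 had upwards by the brightest. Their median ranged from -0.12 to 0.15. Over all probe sets, the higher and lower counts of 941 and 1317 became 4485 and 4510 at a floor of the 20th percentile, 244 and 444 at the 60th, 2992 and 4556 at 1.5-fold, and 331 and 676 within the members' range of signal, an alternative chosen after seeing the data. Median centring left 873 lower and raised the share of higher calls from 41.7% to 60.8%, loess to 53.5%, and a floor of the 20th percentile to 49.9%. No paired analysis was possible because each genotype has 1 array. For the same reason no array could be left out.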
